A study of Mus musculus with 90 samples.

Results

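The JAK-STAT pathway's kinases and its feedback genes were followed in RAW 264.7 cells, a mouse macrophage line, as Socs1, Socs2, Socs3, Cish, Pias1, Jak1, Jak2, Jak3 and Tyk2. These 9 genes were chosen by name and not by a measured value, but with earlier results of these data known. All 9 were measured, out of 9760 named genes and 11600 features (named genes plus probes without a name) that could be tested. Cells were treated for 1, 2 or 4 h with lipopolysaccharide (LPS, a bacterial cell wall component) at 100 ng/ml, listed together with lipid binding protein at 100 pM, with interferon gamma (IFG) at 5 nM, or with 2-methyl-thio-ATP (2MA, an ATP analogue) at 500 µM. The other treatments were LPS+IFG and LPS+2MA at the same doses, listed without lipid binding protein. Each of these 15 conditions was hybridised against RNA of untreated cells kept in medium for the same time, on dual-colour arrays in 3 numbered sets, each set with both dye orientations. Whether a set is its own culture, and whether treatments shared untreated RNA, is not given in the labels. The p-values therefore measure only the spread between sets, which may be technical.

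Cytokines that bind receptors without a kinase domain of their own signal through Janus kinases (JAKs), which phosphorylate STAT transcription factors. Interferon gamma signals through Jak1 and Jak2, and type I interferons signal through Jak1 and Tyk2, while Jak3 pairs with the common gamma chain of interleukin receptors. STATs switch on SOCS proteins and CIS (the product of Cish), which bind activated receptors or JAKs and, through their SOCS box, recruit a ubiquitin ligase. PIAS1 is a SUMO ligase known as an inhibitor of STAT signalling.

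The promoters of the members with the widest and the flattest responses are shown because these regions hold, or lack, the letters that STAT and IRF factors are known to bind. The sequences are from RefSeq on GRCm38.p6 and run 5' to 3' on the gene's strand, from 250 bases before to 50 bases after an annotated start, and 8 of 9 members had an entry (Socs2 was missing). Capitals mark matches, on either strand, to TTCNNNGAA (the gamma-activated sequence, GAS) or to a pair of GAAA boxes with any 2 bases between them, as in interferon-stimulated response elements. The Socs1 window is chr16:10785487-10785786 (minus strand), the Cish window chr9:107296409-107296708 (plus), the Jak2 window chr19:29251553-29251852 (plus) and the Socs3 window chr11:117969317-117969616 (minus, at a start that lies inside the annotated gene span).
Socs1: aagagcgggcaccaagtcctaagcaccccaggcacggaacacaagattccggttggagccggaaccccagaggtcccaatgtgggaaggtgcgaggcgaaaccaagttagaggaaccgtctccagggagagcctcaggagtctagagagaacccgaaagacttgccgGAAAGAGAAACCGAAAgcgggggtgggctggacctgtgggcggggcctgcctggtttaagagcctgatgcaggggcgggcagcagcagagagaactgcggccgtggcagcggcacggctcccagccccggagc
Cish: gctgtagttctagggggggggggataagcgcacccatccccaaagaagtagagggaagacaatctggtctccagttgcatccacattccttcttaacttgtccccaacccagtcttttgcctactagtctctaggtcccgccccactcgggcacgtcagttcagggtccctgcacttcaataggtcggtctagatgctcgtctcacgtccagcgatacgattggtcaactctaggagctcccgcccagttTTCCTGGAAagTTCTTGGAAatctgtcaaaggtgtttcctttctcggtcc
Jak2: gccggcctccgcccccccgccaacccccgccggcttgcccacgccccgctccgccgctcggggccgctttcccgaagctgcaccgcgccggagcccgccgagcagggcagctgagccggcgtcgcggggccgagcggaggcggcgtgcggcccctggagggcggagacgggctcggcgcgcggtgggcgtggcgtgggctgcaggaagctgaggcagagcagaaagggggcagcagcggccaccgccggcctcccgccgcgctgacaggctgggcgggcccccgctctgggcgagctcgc
Socs3: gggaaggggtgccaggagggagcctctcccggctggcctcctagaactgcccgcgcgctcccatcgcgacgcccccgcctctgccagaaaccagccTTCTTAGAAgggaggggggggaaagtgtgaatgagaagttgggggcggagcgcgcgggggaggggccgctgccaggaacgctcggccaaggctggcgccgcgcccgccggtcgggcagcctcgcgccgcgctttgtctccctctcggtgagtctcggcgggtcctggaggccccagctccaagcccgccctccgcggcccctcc
Socs1 held 2 overlapping GAAA-box pairs, at -83 to -74 and -77 to -68 from the start. Cish held 2 GAS matches just after its start, at 1 to 9 and 12 to 20. Socs3 held 1 GAS match, at -154 to -146. Jak2 held neither, nor did Jak1, Jak3, Tyk2 and Pias1, and none of these 8 members held GGG and TTTCC with any 2 bases between them, a kappaB letter pattern searched on both strands. Among all 32851 RefSeq windows of the same length (some genes have several), 8.3% held a GAS match, 3.44% a GAAA-box pair and 1.63% the kappaB pattern. A match describes letters only, and binding was not measured.

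Each value is a log2 ratio of treated to untreated RNA, given as mean ± SD over 3 replicates, and each replicate averages both dye orientations of a numbered set. A ratio or difference was called if it reached 2-fold with a Benjamini-Hochberg adjusted p (limma, adjusted over the 11600 features) under 0.05, and results that passed by the adjusted p alone are named as such. Which dye stands over which in the deposited ratio is not stated in the labels. Treated RNA is taken as the upper term throughout, so each direction is likely rather than known. Of 15 probes of the members 13 were kept, with Socs2, Socs3, Jak1, Jak3 and Tyk2 on 1 probe and the others on 2. Deposited values of exactly 0 made up 7.84 to 17.0% of an array and were left out. Precision is limited by how many arrays there are, and the median residual SD of a feature was 0.199. Ratios carry no level, so the cell line could not be checked by marker abundance. Of 11 macrophage markers 10 were on the array and 8 could be tested, and of 6 T cell markers 5 were on the array and 5 could be tested. In bulk RNA more expressing cells and more RNA per cell cannot be told apart.

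Against time-matched control, Socs1, Cish, Jak2 and Tyk2 were called in at least 1 condition, always higher, and Socs2, Socs3, Pias1, Jak1 and Jak3 were called in none. The 9 members in 15 conditions gave 135 comparisons, of which 27 were called higher and 0 lower. LPS had 0 members called at 1 h (background 1.08% of all features, 4 members at unadjusted p under 0.05 in limma's test), 2 at 2 h (2.21%) and 4 at 4 h (4.81%). IFG had 1 at 1 h (0.379%), 1 at 2 h (1.08%) and 3 at 4 h (1.86%). LPS+IFG had 3 at each time (1.84%, 3.74% and 6.71%), while LPS+2MA had 0 at 1 h (1.22%, with 4 at unadjusted p under 0.05), 3 at 2 h (2.78%) and 4 at 4 h (6.59%). 2MA alone had 0 at each time (0.328%, 0.328% and 0.147%). In limma's test 4 of these 27 comparisons had an unadjusted p under 0.05 (Pias1 at each time and Cish at 2 h), of which 1 (Pias1 at 2 h) kept an adjusted p under 0.05. By the adjusted p alone, 54 of the 135 comparisons passed, 49 higher and 5 lower. They were 3, 6 and 6 members at 1, 2 and 4 h of LPS (5.4%, 15.4% and 28% of all features), 2, 3 and 4 of IFG (1.07%, 3.28% and 11.8%) and 0, 1 and 0 of 2MA (1.27%, 1.23% and 1.84%). LPS+IFG had 3, 6 and 6 (7.26%, 20.3% and 33.4%) and LPS+2MA 2, 6 and 6 (5.36%, 17.2% and 32.8%). The median ratio of the 9 members was highest at 4 h of LPS+2MA (0.83) and of LPS+IFG (0.64), where the median of all features was -0.01 in both.

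**Figure D1:**
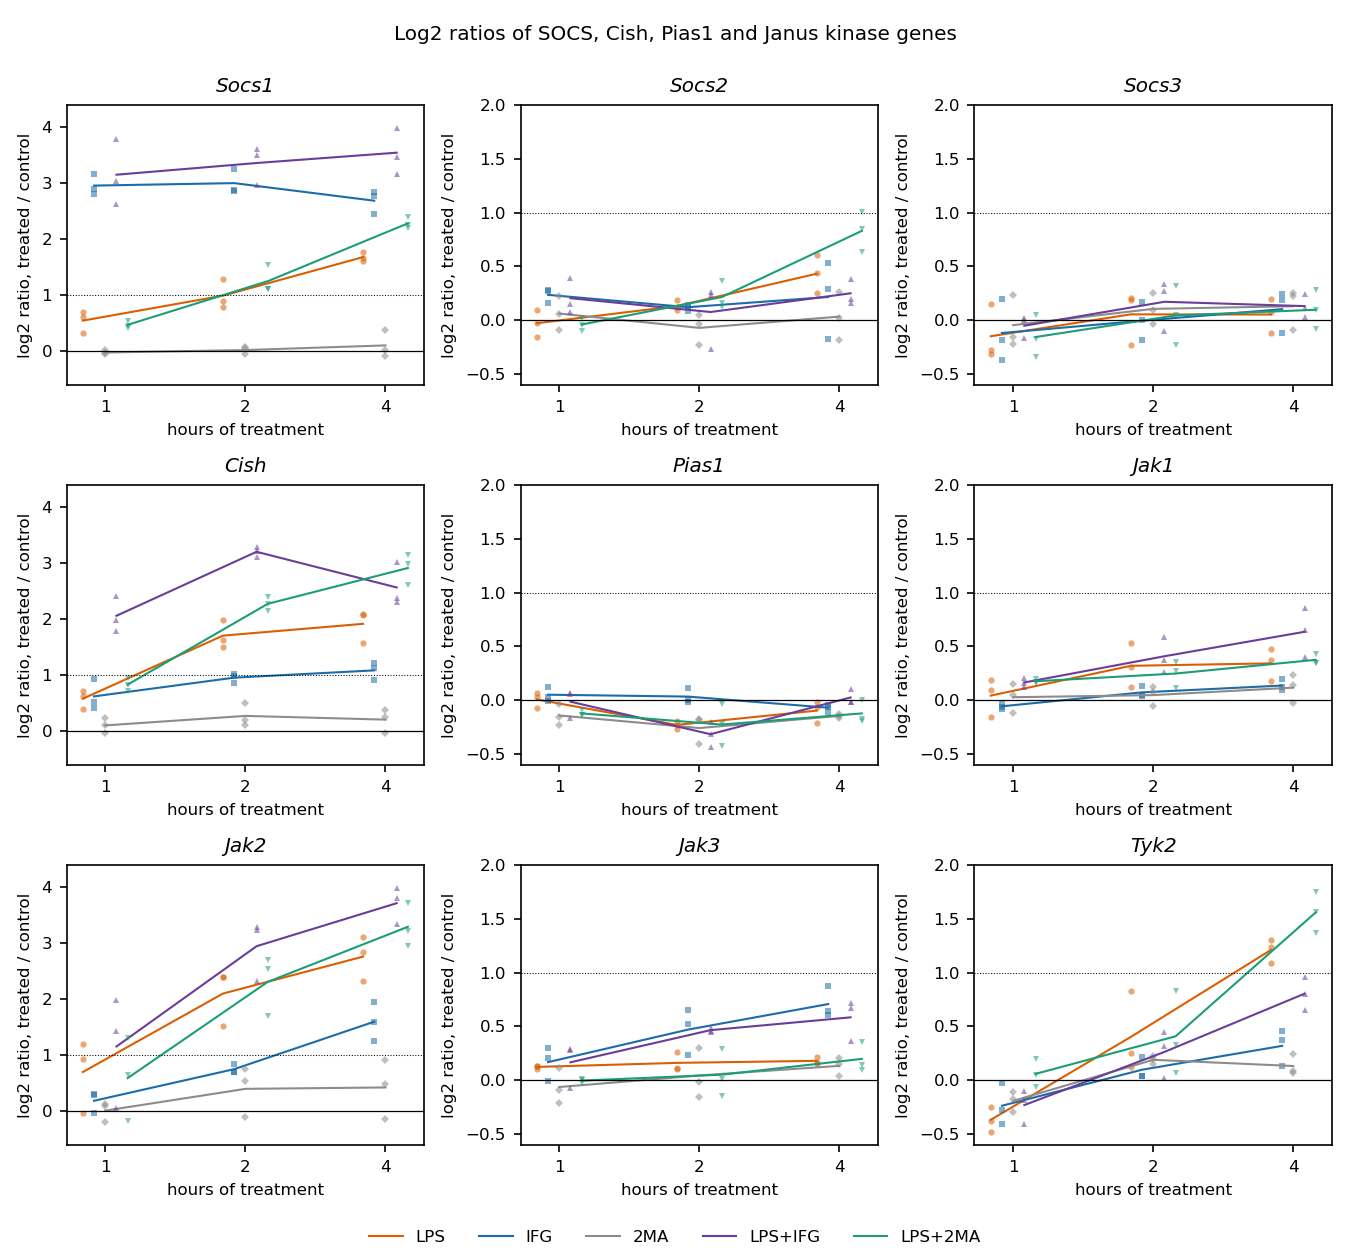
Log2 ratios of the 9 genes (y axis) by hours of treatment (x axis), with small symbols for the 3 replicates, lines through the means, colours for treatments and a dotted line at 2-fold; the upper ranges of Socs1, Cish and Jak2 are drawn on a longer axis than the others. Socs1 was near its full rise at 1 h of IFG (2.96), Jak2 climbed with time under every treatment with LPS, and Socs3 stayed between -0.16 and 0.17.

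Socs1, whose product blocks the JAK catalytic site and is the chief brake on interferon gamma signalling, was raised early by IFG and later by LPS. Its replicates under IFG were 2.81, 2.90 and 3.17 at 1 h, a mean of 2.96 ± 0.18 or 7.78-fold (adjusted p = 2.26e-17). At 2 h the mean was 3.00 ± 0.22 (8.02-fold, adjusted p = 2.3e-18), and at 4 h it was 2.69 ± 0.21 (6.45-fold, adjusted p = 3.48e-17). The 1 h replicates overlapped those of both later times. Under LPS the replicates were 0.34, 0.61 and 0.70 at 1 h, 0.90, 1.29 and 0.79 at 2 h, and 1.66, 1.62 and 1.77 at 4 h. Of these times 4 h was called (mean 1.68 ± 0.08, 3.21-fold, adjusted p = 4.55e-12), while 0.55 ± 0.19 at 1 h and 0.99 ± 0.26 at 2 h passed the adjusted p but lay under 2-fold. The 2 h mean sat on the threshold and was called without replicate 1 (1.04) or replicate 3 (1.10). The 1 h mean no longer passed without replicate 2 (0.52, adjusted p = 0.132) or replicate 3 (0.47, adjusted p = 0.163). The 2 Socs1 probes differed in size, at 1.21 and 0.78 for 2 h of LPS and 1.97 and 1.40 for 4 h. For 4 h of IFG they read 3.04 and 2.34.

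LPS+IFG gave the highest Socs1 means, 3.15 ± 0.58, 3.36 ± 0.34 and 3.55 ± 0.41 (11.7-fold at 4 h, adjusted p = 3.16e-21). LPS+2MA gave 0.47 ± 0.07 at 1 h, 1.25 ± 0.25 at 2 h and 2.29 ± 0.10 at 4 h, the last 4.87-fold (adjusted p = 7.92e-16). The 1 h value passed by the adjusted p alone (0.0428) and not without any 1 of its replicates (adjusted p 0.144 to 0.282). Under 2MA alone the 9 replicates lay between -0.09 and 0.39 and none of the means passed the test. In order of mean ratio the conditions of Socs1 formed a top block of LPS+IFG and IFG, whose neighbours overlapped, then LPS+2MA at 4 h and LPS at 4 h, which overlapped with no neighbour, then the earlier LPS and LPS+2MA times, and 2MA last.

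Cish, which encodes CIS, an inhibitor best known as a target of STAT5, responded to LPS and to IFG, and at 1 and 2 h its mean was highest under their combination. Under LPS+IFG its replicates were 1.98, 2.41 and 1.80 at 1 h, 3.28, 3.12 and 3.22 at 2 h, and 2.38, 2.30 and 3.02 at 4 h. The 2 h mean of 3.21 ± 0.08 was 9.23-fold (adjusted p = 6.44e-21), and its replicates did not overlap those of the other times. LPS alone gave 0.58 ± 0.17 at 1 h, 1.71 ± 0.25 at 2 h (3.27-fold, adjusted p = 3.45e-13) and 1.92 ± 0.29 at 4 h (3.78-fold, adjusted p = 3.83e-15). IFG gave 0.62 ± 0.28 at 1 h and 0.96 ± 0.08 at 2 h, both under 2-fold, and 1.09 ± 0.15 at 4 h (2.13-fold, adjusted p = 2.3e-08). That call was lost when only Cy5-labelled treated RNA was used (0.92), and the 2 h mean reached 2-fold without replicate 1 (1.00). Without replicate 2 the 1 h values of Cish no longer passed, for LPS (0.52, adjusted p = 0.0609) or for IFG (0.47, adjusted p = 0.319). LPS+2MA gave 0.84 ± 0.12, 2.28 ± 0.12 (4.85-fold) and 2.92 ± 0.28 (7.55-fold, adjusted p = 2.63e-20) at 1, 2 and 4 h, while the means of 2MA alone were 0.11 to 0.28 and did not pass. The difference between LPS+2MA and LPS+IFG was not tested. The 2 Cish probes differed in size: at 2 h of LPS+IFG they read 3.81 and 2.60. At 4 h of IFG they read 1.45 and 0.72, the latter under 2-fold. The lower probe alone did not pass at 1 h of LPS (0.40, adjusted p = 0.11) or of IFG (0.38, adjusted p = 0.499).

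The other feedback genes moved little. Socs2, best known as a regulator of growth hormone signalling, was highest at 4 h of LPS+2MA, where its replicates of 1.01, 0.85 and 0.64 gave a mean of 0.83 ± 0.18 (1.78-fold, adjusted p = 1.89e-08). At 4 h of LPS they were 0.60, 0.44 and 0.26 (0.43 ± 0.17, adjusted p = 0.000955), and no other condition passed the adjusted p. The lowest of the LPS+2MA replicates lay above the highest of LPS, but the difference of 0.40 between these conditions did not pass (adjusted p = 0.495). Pias1 was lower at 2 h by the adjusted p, though far from 2-fold, under every treatment except IFG. Its means there were -0.23 ± 0.03 for LPS (adjusted p = 0.0143), -0.26 ± 0.13 for 2MA (adjusted p = 0.0412), -0.31 ± 0.11 for LPS+IFG (adjusted p = 0.000384) and -0.22 ± 0.19 for LPS+2MA (adjusted p = 0.014), against 0.03 ± 0.07 for IFG. The LPS+IFG value passed whichever replicate was left out but not when only Cy5-labelled treated RNA was used (-0.14, adjusted p = 0.205). The others were lost without LPS replicate 1 (adjusted p = 0.101) or 3 (0.068), without LPS+2MA replicate 1 (0.313) or 3 (0.0613), and without any 1 replicate of 2MA (0.0628 to 0.554). With only the compared conditions in the fit none of these 4 Pias1 values passed (adjusted p 0.163 to 0.995).

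Socs3, which binds the gp130 receptor chain and ends interleukin 6 signalling, did not pass the test in any condition. Its means lay between -0.16 (LPS+2MA at 1 h) and 0.17 (LPS+IFG at 2 h), on 1 probe. Ratios carry no level, and whether that probe can detect a change in Socs3 RNA was not tested. What varied was the set. At 1 h, set 3 was above 0 in 5 of 5 treatments (mean 0.13) and set 1 below 0 in 5 of 5 (mean -0.25), and at 2 h set 2 was below 0 in 5 of 5 (mean -0.16). Of the spread of its replicates within conditions, 79.2% was shared by sets of the same time, more than in 94.8% of features (median 51.6%). Its arrays also split by dye, with a median over conditions of 0.33 for treated RNA in Cy5 and -0.23 in Cy3, and the Cy5 value was above in 15 of 15 conditions. Each replicate averages both orientations. With the set as a block in the fit, 0 of its 21 differences between treatments or from a sum passed the adjusted p in limma's test, as without the block.

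Jak2, the kinase on the Ifngr2 chain of the interferon gamma receptor and on many hematopoietic cytokine receptors, showed the widest range of means among the members, wider than that of 99.5% of features. Under LPS its replicates of sets 1, 2 and 3 were 0.94, 1.20 and -0.03 at 1 h, 2.39, 2.40 and 1.52 at 2 h, and 2.85, 3.11 and 2.33 at 4 h. The 2 h mean was 2.10 ± 0.51 (4.30-fold, adjusted p = 2.28e-07) and the 4 h mean 2.76 ± 0.40 (6.78-fold, adjusted p = 1.76e-10), with no overlap between 1 h and 2 h. IFG raised it later, with 0.19 ± 0.19 at 1 h, 0.75 ± 0.09 at 2 h and 1.60 ± 0.35 at 4 h, the last called (3.03-fold, adjusted p = 3.43e-05). Under LPS+IFG the replicates at 4 h were 3.98, 3.81 and 3.35, a mean of 3.72 ± 0.33 or 13.1-fold (adjusted p = 5.46e-14), the highest mean of any member. LPS+2MA gave 2.31 ± 0.53 at 2 h (4.97-fold) and 3.30 ± 0.38 at 4 h (9.82-fold, adjusted p = 1.43e-12). The 2 Jak2 probes lay close, at 3.66 and 3.78 for 4 h of LPS+IFG.

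Set 3 stood apart for Jak2: it was the lowest of the sets in 13 of 15 conditions, and 71.6% of the gene's spread within conditions was shared by sets. The gap was widest at 1 h, where LPS+IFG gave 1.44, 1.98 and 0.05 in sets 1, 2 and 3. That mean of 1.16 ± 1.00 was called (adjusted p = 0.00346), but not without replicate 1 (1.02, adjusted p = 0.0884) or without replicate 2 (0.75, adjusted p = 0.266), nor when only Cy5-labelled treated RNA was used (0.96). Without set 3 throughout, it was 1.71 (adjusted p = 2e-07), and the means at 4 h of LPS and of LPS+IFG were 2.98 and 3.90. All 8 calls of Jak2 against control held without set 3. That set was left out after its low Jak2 values were seen, so this is no independent check of the calls. Jak2, Jak1 and Tyk2 each read higher with treated RNA in Cy3 than in Cy5 in 15 of 15 conditions, and for Jak2 the medians over conditions were 1.36 and 0.96. Each replicate averages both orientations, and with a dye term in a fit of all arrays 123 of the 124 member comparisons followed under alternatives stayed on the same side of the test, the exception being Socs1 at 1 h of LPS+2MA (0.37, adjusted p = 0.178).

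**Figure D2:**
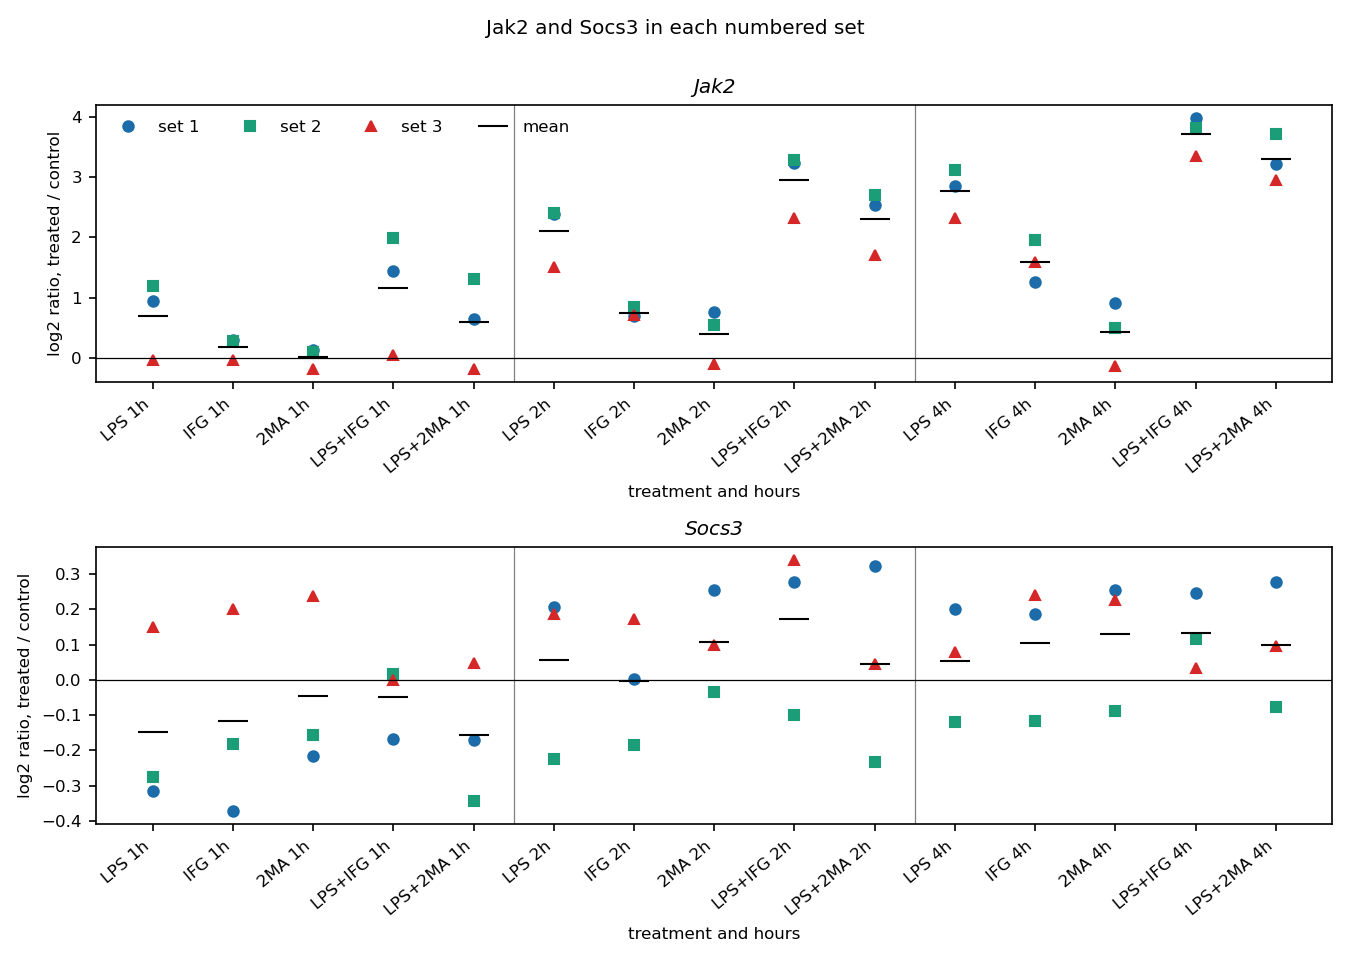
Log2 ratios of Jak2 (upper panel) and Socs3 (lower panel) in each numbered set (symbols) and their mean (bars) by treatment and hours (x axis), with grey lines between times; the y axes differ. Set 3 lies lowest for Jak2 in 13 of 15 conditions, and for Socs3 the 1 h values of set 3 lie above 0 in 5 of 5 treatments and those of set 1 below.

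Tyk2, the kinase of the type I interferon and interleukin 12 receptors, was called at 4 h of LPS and of LPS+2MA. Its replicates at 4 h of LPS were 1.24, 1.30 and 1.09, a mean of 1.21 ± 0.11 (2.31-fold, adjusted p = 2.81e-11). At 4 h of LPS+2MA they were 1.56, 1.75 and 1.37, a mean of 1.56 ± 0.19 (2.95-fold, adjusted p = 2.39e-14). Scaling arrays to equal spread put the LPS value just under 2-fold (0.998). At 4 h of LPS+IFG the replicates of 0.96, 0.80 and 0.65 lay below all 3 of LPS. Their mean of 0.80 ± 0.15 passed the adjusted p (1.86e-07) but not 2-fold, although with Cy3-labelled treated RNA alone it was called (1.09). The gene's other probe was not kept because of missing values. At 4 h it read 1.36 for LPS, 1.77 for LPS+2MA and 1.01 for LPS+IFG, the last just above 2-fold. The difference LPS+IFG less LPS, -0.41 ± 0.16 (SE), did not pass (adjusted p = 0.194), but with the set as a block in the fit it did (adjusted p = 0.0417). At 2 h the ratios of 0.40 ± 0.37 in LPS and 0.41 ± 0.39 in LPS+2MA passed by the adjusted p alone, and neither did so without replicate 1 (0.19 and 0.20). The mean at 4 h of IFG, 0.32 ± 0.17, did not pass either (adjusted p = 0.0545). At 1 h of LPS the value was -0.37 ± 0.11 (adjusted p = 0.0432). It no longer passed without any 1 of its replicates (adjusted p 0.0777 to 0.421), was 0.14 when only Cy3-labelled treated RNA was used, and was -0.18 (adjusted p = 0.49) with the gene's other probe included.

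Jak1, the partner kinase of both interferon receptor types, was higher by the adjusted p alone in 6 conditions, at most 0.64 ± 0.23 at 4 h of LPS+IFG (1.55-fold, adjusted p = 2.91e-08). These were the 2 h and 4 h times of LPS, LPS+IFG and LPS+2MA, whereas its means under IFG alone were -0.06 to 0.14 and did not pass. Jak1 no longer passed at 2 h of LPS without replicate 1 (0.21, adjusted p = 0.163) or at 2 h of LPS+2MA without replicate 1 (adjusted p = 0.116) or 2 (adjusted p = 0.262). With only the compared conditions in the fit, 4 of these 6 Jak1 values no longer passed (adjusted p 0.0563 to 0.291). Jak3, the kinase tied to the common gamma chain, passed under IFG at 2 h (0.47 ± 0.21, adjusted p = 0.000528) and 4 h (0.71 ± 0.15, 1.63-fold, adjusted p = 1.86e-07) and under LPS+IFG at 2 h (0.47 ± 0.02) and 4 h (0.58 ± 0.19). Without IFG replicate 3 the 2 h value of Jak3 was 0.38 (adjusted p = 0.057). Under LPS alone Jak3 stayed between 0.12 and 0.18 and passed at no time. At 4 h its replicates under IFG (0.65, 0.60 and 0.87) were all above those under LPS (0.16, 0.16 and 0.22), and the difference LPS less IFG was -0.53 ± 0.13 (SE, adjusted p = 0.00423). It did not pass when only Cy3-labelled treated RNA was used (-0.45, adjusted p = 0.0657) or without set 3 (-0.46, adjusted p = 0.054).

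LPS and IFG were also set against each other directly, with 5 of 27 member comparisons called (background 1.22%, 2.29% and 2.72% at 1, 2 and 4 h). Socs1 was lower under LPS than under IFG at every time, with differences of -2.41, -2.01 and -1.01 at 1, 2 and 4 h (SE 0.203, adjusted p = 7.57e-11, 2.81e-09 and 0.000561), and at no time did the replicates overlap. The 4 h difference was just under 2-fold without LPS replicate 1 or 2 or IFG replicate 2 or 3 (-0.93 to -0.997, adjusted p 0.00379 to 0.00662). It was not called with arrays scaled to equal spread (-1.12, adjusted p = 0.0566). On the Socs1 probe with a value in every replicate it was also under 2-fold (-0.94, adjusted p = 0.0015). Jak2 was higher under LPS, by 1.35 ± 0.39 at 2 h (SE, adjusted p = 0.0237) and 1.16 ± 0.39 at 4 h (adjusted p = 0.04995). Each of these calls was lost without LPS replicate 1 or 2 or without any of the IFG replicates, with values of 1.20 to 1.40 at 2 h and 0.99 to 1.34 at 4 h. With the set as a block in the fit both were called with lower adjusted p, 4.29e-05 at 2 h and 0.000238 at 4 h. Cish was higher under LPS at 2 h (0.75, adjusted p = 0.00471) and 4 h (0.83, adjusted p = 0.00117), and Tyk2 at 4 h (0.89, adjusted p = 8.57e-05), all by less than 2-fold.

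What IFG added to LPS was called for Socs1 at each time and for Cish at 1 and 2 h, 5 calls in all (background 0.655%, 0.94% and 1.03% at 1, 2 and 4 h). Socs1 was higher in LPS+IFG than in LPS by 2.60, 2.37 and 1.86 at 1, 2 and 4 h (adjusted p = 1.11e-11, 8.05e-11 and 2.91e-08). Cish was higher by 1.48 at 1 h (adjusted p = 3.07e-07) and 1.50 at 2 h (adjusted p = 2.19e-07). At 4 h its difference of 0.65 passed the adjusted p (0.0261) but not without LPS replicate 2 (0.48, adjusted p = 0.262) or LPS+IFG replicate 3 (0.42, adjusted p = 0.329). Jak2 was 0.95 ± 0.39 (SE) higher at 4 h, which did not pass (adjusted p = 0.234, 95% interval 0.17 to 1.74). Same-numbered sets deviated together in this comparison, and with the set as a block 10 of its 27 differences passed the adjusted p, against 6 without, with the same 5 called. The added ones, all under 2-fold, were Jak2 at 4 h (adjusted p = 0.0042) and at 2 h (0.85, adjusted p = 0.0178 against 0.4 without the block), Jak3 at 4 h (0.40, 0.0131 against 0.0722) and Tyk2 at 4 h (-0.41, 0.0417 against 0.194). The share of all features passing by the adjusted p alone was not counted for this comparison.

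What 2MA added to LPS was called for 0 members (background 0.069%, 0.0259% and 0.112%), while 6 of 27 comparisons had an unadjusted p under 0.05 in limma's test. The largest was Cish at 4 h, at 0.997 ± 0.178 (SE, adjusted p = 0.00417), with replicates of 3.15, 2.62 and 2.98 against 2.08, 1.58 and 2.10 under LPS. All 3 replicates with 2MA lay above all 3 without it. The value passed 2-fold without LPS replicate 1 (1.08) or 3 (1.09) or LPS+2MA replicate 2 (1.15), and failed the test without LPS replicate 2 (0.83, adjusted p = 0.0661) and with arrays scaled to equal spread (0.87, adjusted p = 0.434). Lipid binding protein is listed with LPS and with neither combination, so adding 2MA or IFG to LPS and leaving out that protein cannot be told apart.

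LPS added to IFG changed Cish at each time (1.44, 2.25 and 1.48) and Jak2 at 2 h (2.19, adjusted p = 0.000115) and 4 h (2.12, adjusted p = 0.000149), where 1.12%, 2.15% and 2.6% of features were called. Socs1 was higher in LPS+IFG than in IFG by 0.19, 0.36 and 0.86 at 1, 2 and 4 h. The last of these passed the adjusted p (0.00333) without reaching 2-fold, and its replicates (3.47, 3.17 and 3.99) lay above those of IFG. It was called without LPS+IFG replicate 2 (1.04), and did not pass without replicate 3 (0.63, adjusted p = 0.0559) or with arrays scaled to equal spread (0.28, adjusted p = 0.97). LPS added to 2MA changed 0 members at 1 h (background 0.819%, 2 at unadjusted p under 0.05 in limma's test), Socs1, Cish and Jak2 at 2 h (1.74%), and these with Tyk2 at 4 h (4.97%). The largest of these differences was 2.87 for Jak2 at 4 h (adjusted p = 3.9e-07).

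Against the sum of its single treatments on the log2 scale, a combination was called different by limma in 0 of 54 comparisons (background 0.0862%, 0.302% and 1.38% for LPS+IFG at 1, 2 and 4 h and 0.00862%, 0.00862% and 0.0517% for LPS+2MA), and 10 had an unadjusted p under 0.05. Tyk2 at 4 h of LPS+IFG alone had an adjusted p under 0.05, at 0.80 against a sum of 1.53, a difference of -0.73 ± 0.19 (SE, adjusted p = 0.0272). This was lost without LPS replicate 1 or 2, IFG replicate 1 or 2 or LPS+IFG replicate 2 or 3 (-0.65 to -0.72, adjusted p 0.0714 to 0.112). It was also lost when only Cy5-labelled treated RNA was used (-0.45, adjusted p = 0.287). With the set as a block in the fit the Tyk2 difference passed (adjusted p = 0.00245), under 2-fold. Socs1 lay below its sum at 4 h of LPS+IFG (3.55 against 4.37), a difference of -0.83 with a 95% interval of -1.33 to -0.32 that did not pass (adjusted p = 0.0708). Cish lay above its sum at 1 h of LPS+IFG (2.06 against 1.21), a difference of 0.86 with an interval of 0.41 to 1.30 that did not pass either (adjusted p = 0.238). With the set as a block in the fit both passed the adjusted p (0.0169 for Socs1 and 0.0126 for Cish), neither by 2-fold. For Jak2 at 4 h of LPS+IFG the difference was -0.65, with an interval of -1.61 to 0.31, wide enough to hold a 2-fold departure. The LPS term of each sum was listed with lipid binding protein, and the combinations were listed without it. A departure from the sum and the absence of that protein therefore cannot be told apart.

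**Figure D3:**
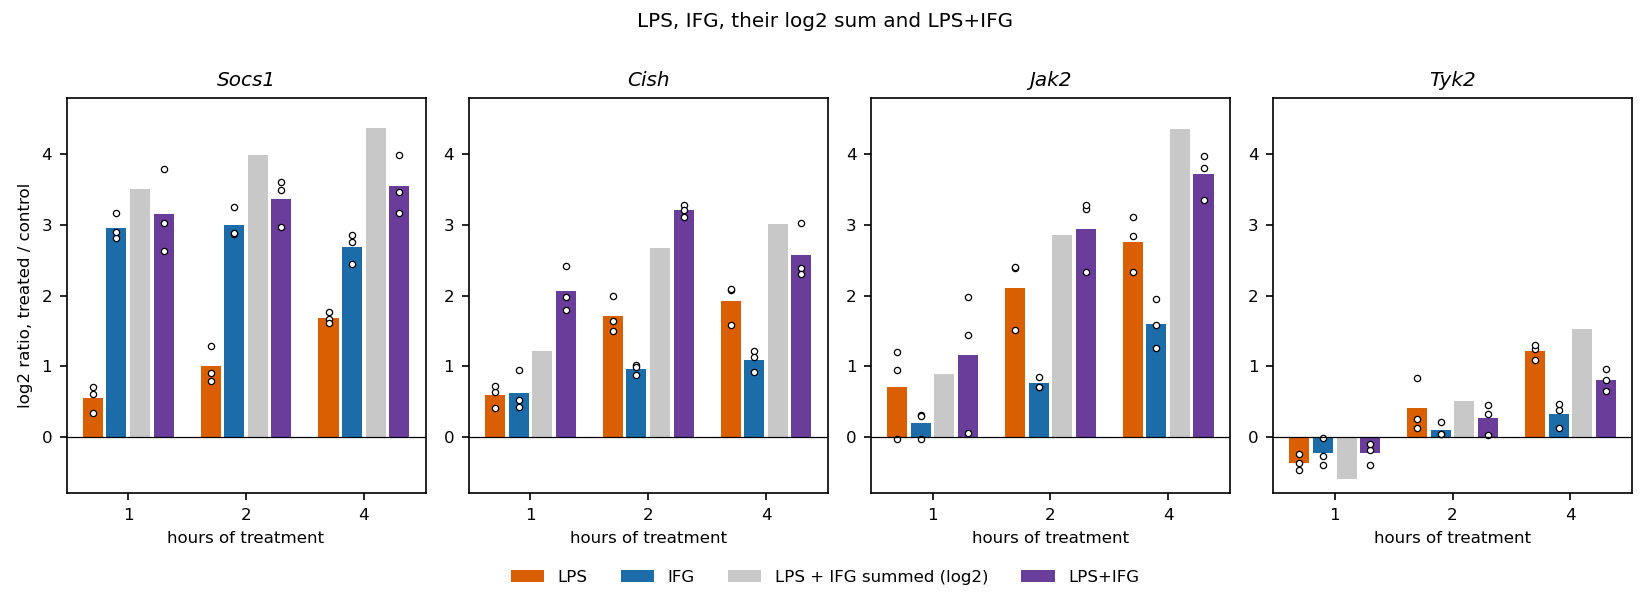
Log2 ratios (y axis) of Socs1, Cish, Jak2 and Tyk2 under LPS, IFG and LPS+IFG (coloured bars, means, with the 3 replicates as circles) and the sum of the LPS and IFG means (grey bars, no replicates of its own) at 1, 2 and 4 h (x axis). LPS+IFG stands above the sum for Cish at 1 h and below it for Socs1 and Tyk2 at 4 h, differences of 0.86, -0.83 and -0.73. LPS alone was listed with lipid binding protein and LPS+IFG without it.

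Between times, 19 of 135 comparisons of a later with an earlier ratio were called, all higher at the later time. From 1 to 2 h, Cish and Jak2 were called in LPS (1.13 and 1.40, background 0.862%), LPS+IFG (1.14 and 1.79, 1.28%) and LPS+2MA (1.44 and 1.72, 1.01%). From 2 to 4 h, Socs1 (1.03) and Tyk2 (1.15) were called in LPS+2MA (2.41%), and Tyk2 gained 0.81 in LPS (adjusted p = 0.000545), under 2-fold. From 1 to 4 h the calls were 4 in LPS (3.68%), 1 in IFG (1.25%), 2 in LPS+IFG (4.77%) and 4 in LPS+2MA (5.13%). Under IFG the 1 was Jak2 (1.41, adjusted p = 0.0233), while Socs1 had a difference of -0.27 with a 95% interval of -0.68 to 0.14 (adjusted p = 0.692). Cish at LPS+IFG was lower at 4 h than at 2 h, by the adjusted p alone (-0.64, adjusted p = 0.0209), and this was lost without 2 h replicate 1 or 3 or 4 h replicate 1 or 2 (-0.50 to -0.63). The other comparisons had 0 members called. In limma's test 3 members had an unadjusted p under 0.05 for LPS from 2 to 4 h (background 1.75%) and 3 for LPS+IFG from 2 to 4 h (1.37%). For IFG there were 2 from 1 to 2 h (0.181%) and 1 from 2 to 4 h (0.405%), and for 2MA 1, 0 and 1 from 1 to 2 h, 2 to 4 h and 1 to 4 h (0.00862%, 0% and 0.147%).

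Several of these calls did not hold when 1 replicate was left out. Jak2 from 1 to 4 h of IFG was lost without any of the 1 h replicates or 4 h replicate 2 or 3 (1.24 to 1.47, adjusted p 0.062 to 0.136). Jak2 from 1 to 2 h was lost in LPS without 1 h replicate 1 or 3 or 2 h replicate 1 or 2 (1.03 to 1.52, adjusted p 0.082 to 0.33), in LPS+IFG without 1 h replicate 3 (1.24, adjusted p = 0.07) and in LPS+2MA without 1 h replicate 3 (1.33, adjusted p = 0.109) or 2 h replicate 2 (1.52, adjusted p = 0.063). Without set 3 throughout, a removal chosen after seeing the data, all of the 7 Jak2 calls between times held. Cish from 1 to 2 h of LPS without 2 h replicate 2 (0.98), Tyk2 from 1 to 4 h of LPS+IFG without 1 h replicate 1 (0.95) or 4 h replicate 1 (0.95), Tyk2 from 2 to 4 h of LPS+2MA without 2 h replicate 3 (0.98) and Socs1 there without 2 h replicate 1 or 3 or 4 h replicate 1 (0.96 to 0.98) dropped just under 2-fold. Since the untreated RNA is time-matched, a ratio that changes with time can move through either RNA.

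The other JAK-STAT genes were taken from 6 lists chosen by role, with earlier results of these data known. Of 15 measured ligands, 7 were called higher at 4 h of LPS, 8 at 4 h of LPS+2MA and 6 at 4 h of LPS+IFG, against 1 at 4 h of IFG. Of all features 4.81% were called at 4 h of LPS, 6.59% of LPS+2MA, 6.71% of LPS+IFG and 1.86% of IFG, the background for each list count at 4 h that follows. Il6 (interleukin 6) reached 5.50 ± 0.29 and Ifnb1 (interferon beta) 4.67 ± 0.61 at 4 h of LPS+2MA, against 4.50 ± 0.10 and 3.20 ± 0.94 for LPS, and Csf3 (granulocyte colony-stimulating factor) was 3.88 ± 0.84 and 4.18 ± 0.30. Among 23 receptors, 4 were called higher at 4 h of IFG and 6 at 4 h of LPS+IFG, among them the cytokine receptor chains Il4ra (2.15 ± 0.85), Il13ra1 (2.61 ± 0.27) and Il15ra (2.32 ± 0.54). Of 6 measured transducers, 4 h brought 4 calls in LPS, 4 in LPS+2MA, 3 in LPS+IFG and 2 in IFG. At 4 h Stat3 stood at 1.95 ± 0.11 in IFG and 1.27 ± 0.31 in LPS, Stat5a was called in LPS (1.22 ± 0.47) and not in IFG, and Stat2 stood at 2.66 ± 0.14 in LPS and 1.74 ± 0.10 in IFG. The difference between stimuli was not tested for these genes.

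Of 16 measured STAT target genes, 10 were called higher at 4 h of LPS+IFG, 9 at 4 h of LPS+2MA and 8 at 4 h of LPS and of IFG. Cxcl9, a chemokine induced by interferon gamma, was called at every time of IFG (4.90 ± 0.43 at 4 h) and of LPS+IFG and in no other condition. Myc was called higher at each time of LPS (3.95 ± 0.40 at 4 h) and of 2MA (2.54 ± 0.42 at 1 h) and lower at 1 h (-1.43 ± 0.34) and 2 h (-1.06 ± 0.09) of IFG. Fas, a death receptor, was higher at 4 h of all 5 treatments, 1.16 ± 0.61 in 2MA and 3.96 ± 0.55 in LPS+IFG. Among 14 other inhibitors of the pathway 1 was called in any condition, the phosphatase Ptpn2 at 2 and 4 h of LPS+IFG (1.02 ± 0.22 and 1.01 ± 0.11), and of 6 SOCS-box ligase partners 1 passed the adjusted p at 2 h of LPS and 1 at 4 h of LPS+2MA, neither by 2-fold. At 4 h of LPS+IFG the medians were 0.62 for ligands, 1.05 for transducers, 1.94 for STAT targets, 0.13 for receptors, 0.08 for other inhibitors and 0.12 for ligase partners, against -0.01 for all features.

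**Figure D4:**
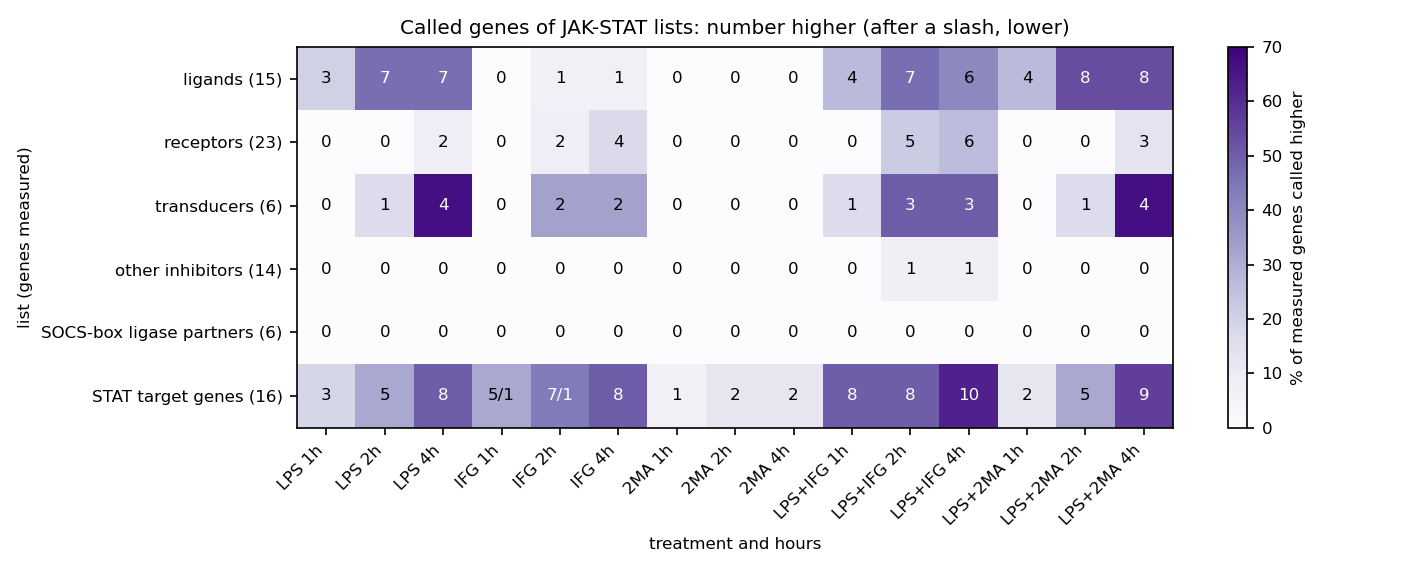
Number of genes called higher (after a slash, lower) in each of 6 JAK-STAT lists (rows, with the number of genes measured) by treatment and hours (columns), shaded by percent of the list. Ligands darken under LPS (7 of 15 at 4 h, against 1 under IFG) and STAT targets under both LPS and IFG (8 of 16 at 4 h of each), and the 2 lists of inhibitors and ligase partners hold 1 called gene between them, Ptpn2.

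Across the 15 condition means, the members fell along different profiles, given as a description because conditions may share untreated RNA. Jak2 tracked Jak1 (Pearson r = 0.936) and Cish (r = 0.913), but Socs1 less so (r = 0.517), and Socs1 and Cish gave r = 0.638. Among 980 genes called in at least 1 condition, the profiles most like Socs1 were those of Gdap10 (r = 0.955), Irf8 (r = 0.954) and Tnfrsf1a (r = 0.945). Those most like Cish were Lce1d (r = 0.942), Map3k8 (r = 0.933) and Hbegf (r = 0.928). For Jak2 they were Rab12 (r = 0.976), Cxcl16 (r = 0.976) and Clic4 (r = 0.969), and for Tyk2 Cmtr1 (r = 0.972), Pstpip1 (r = 0.958) and Sh2d6 (r = 0.956). In range of condition means, Socs1 (3.57) was wider than 99.4% of features, Cish (3.10) than 99.0% and Tyk2 (1.93) than 96.5%, while Pias1 (0.37) and Socs3 (0.33) were wider than 35.2% and 25.8%.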

How the data were processed

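Total RNA of treated and time-matched untreated RAW 264.7 cells was hybridised on 90 custom dual-colour Agilent arrays. The authors deposited 1 log2 ratio per probe and array, a scale read from the values (at most 6.64, with a median of 0 on every array). Their normalisation is not stated in the labels. Zeros were treated as missing, and signs were turned on arrays with treated RNA in Cy3. Dye-swapped arrays of a set correlated negatively before turning in 37 of 45 pairs, and in 45 of 45 with each probe's mean removed (r across probes, which are not independent). Of 16281 probes, 13738 named 1 gene. A replicate needed both arrays of its pair, and probes with at least 2 of 3 replicates in every condition (13711) were kept and averaged by gene. The 45 replicates entered 1 linear model of the 15 conditions, moderated by limma 3.58.1 in R 4.3.3 (prior 5.82 degrees of freedom, prior SD 0.185) and Benjamini-Hochberg adjustment within a comparison. Same-numbered sets deviated together wherever LPS met a combination (18 of 18 pairs, r at least 0.119), so set numbers pair the samples there. The fit has no set block, and where the block changes what passes, blocked values stand beside the result or in the last section. In 17 of 18 pairs of a combination with its other treatment r was above 0.1 (median 0.4), and in 8 of 9 of LPS with IFG (median 0.437). Most same-numbered sets deviated together there too, against a median of 0.466 where LPS met a combination. Blocked values are therefore given for these comparisons as well. Motif searches and plots used Python 3.11.15 with matplotlib 3.10.9. The procedure was tested on simulated data. Members, lists and tests were chosen with earlier results of these data known. Named list genes were at most the 3 with the largest ratio per list among those called, and for each called member the 3 genes with the most alike means were named. Alternatives left out 1 replicate at a time or changed 1 step of the above.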

Additional observations from a re-analysis of the deposited data

Results flagged for a closer look

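These 11 results differ between 4 h and 1 h of the same treatment in a test of the difference itself (limma, adjusted p under 0.05 and at least 2-fold). In LPS the gains were 1.13 for Socs1, 1.34 for Cish, 2.06 for Jak2 and 1.58 for Tyk2. In LPS+2MA the same 4 genes gained 1.81, 2.08, 2.70 and 1.50. In LPS+IFG Jak2 gained 2.56 and Tyk2 1.03, while Socs1 did not pass (0.39, adjusted p = 0.217). In IFG Jak2 gained 1.41. With arrays scaled to equal spread the LPS gains of Socs1 (0.68, adjusted p = 0.299) and Cish (0.91, adjusted p = 0.0174), the LPS+IFG gain of Tyk2 (0.81) and the IFG gain of Jak2 (1.25, adjusted p = 0.0649) were no longer called. The probe of Socs1 with a value in every replicate gave 0.76 for its LPS gain (adjusted p = 0.00839).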

How the results depend on the processing

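Leaving out each replicate in turn gave 26 to 28 calls against control (27 with all replicates). Leaving out all of set 3, an alternative chosen after seeing the data, gave 29. With each replicate left out in turn, the other counts were 5 to 6 for a combination against LPS (5), 12 to 13 against its other single treatment (12), 0 to 1 for departure from the sum (0), 3 to 5 for LPS against IFG (5) and 17 to 19 between times (19). By adjusted p alone the counts were 54 against control, 1 for the sum, 9 for LPS against IFG and 35 between times. Only against control was the share of all features passing that way counted. The other counts, and those with the set block below, therefore have no background. LPS against IFG had 3 calls with arrays scaled to equal spread, with treated RNA in Cy3 only and with 1 probe per gene. A gene on 2 probes takes their mean, so both lie about equally far from it. Which probe was used was therefore arbitrary and could differ between comparisons. With arrays scaled, 12 calls were left between times, and with Cy5 only the sum had 1. The sign turned for Cish from 1 to 4 h of LPS+IFG with arrays scaled (-0.074) and for Tyk2 at 1 h of LPS with Cy3 only (0.14), and the cause was not tested. With the set as a replicate block the counts were 5 for a combination against LPS, 12 against its other treatment, 0 for the sum and 5 for LPS against IFG, and the same comparisons were called. By the adjusted p alone, 44 of 189 passed with the block and 35 without. Beside the 4 for LPS+IFG against LPS, the added ones were in LPS+IFG against IFG and in a combination against the sum. Against IFG they were Jak1 at 2 h (0.34, adjusted p = 0.0189) and Jak2 at 1 h (0.97, adjusted p = 0.00574). Against the sum they were, in LPS+IFG, Socs1 at 4 h (-0.83, adjusted p = 0.0169) and Cish at 1 h (0.86, adjusted p = 0.0126). In LPS+2MA it was Cish at 4 h (0.79, adjusted p = 0.0264). Fitting only the compared conditions left 16 calls between times, and a dye term on all arrays left each count as it was. Depth is not recorded in ratios, and values near 0 may hide weak probes.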
